A study of Homo sapiens with 12 samples.

Results

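BMF and the 7 other BCL2 family genes BBC3, BCL2L11, PMAIP1, BAX, BAK1, BCL2L1 and MCL1 were followed across 12 RNA libraries of human hepatocellular carcinoma (HCC) cells. These 8 genes were selected from a list drawn up with drug-response results of these same libraries already known. Since the rule does not name which values were used, the drug responses of the 8 genes and their levels under each drug are given here as a description, with no p-value. Differences between the cell lines are means over all treatments and so hold levels under a drug. They are also given as a description, with no p-value. All 8 listed genes were among the 11548 genes of the deposited table, which holds genes above a low-value limit. The data come from the established cell lines Hep3B, MHCC97H and Huh7, all labelled as wild type (WT). Each line was left untreated or given AZD8055, an inhibitor of the mTOR kinase in both of its complexes, compound #57, an allosteric inhibitor of the phosphatase SHP2, or both drugs (the combination). AZD8055 was used at 100 nM, and the combination held 5 µM of compound #57, while the dose of compound #57 given alone is not named in the sources used here. The drugs were left on for 48 h in Hep3B and Huh7 but for 24 h in MHCC97H, so that time and this cell line cannot be told apart. Each of the 12 conditions is 1 library, and the 3 cell lines served as the replicates of a treatment.

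The BCL2 family decides whether the outer mitochondrial membrane is opened during apoptosis. BAX and BAK1 form the pores that release cytochrome c. BCL2L1 (BCL-XL) and MCL1 hold them in check, and both are known to keep hepatocytes alive. The BH3-only proteins BMF, BBC3 (PUMA), BCL2L11 (BIM) and PMAIP1 (NOXA) bind these pro-survival proteins and so lift the block on BAX and BAK1. BMF and BIM are known to be held at the cytoskeleton through dynein light chains, BIM is a known target of FOXO factors and is marked for degradation by ERK, and NOXA binds MCL1 above all.

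To show the regulatory sequence that lies at the start of the genes the results turn on, the RefSeq promoters (GRCh38.p14) of 3 BH3-only genes and of BAX are printed 5′ to 3′ on the gene's own strand. Each runs from 250 bases before to 50 bases after a start site. Capitals mark matches on either strand to the FOXO core GTAAACA, the E-box CACGTG (its own reverse complement) and the AP-1 motif TGAGTCA, and no capitals overlap. These promoters are chr15:40108830-40109129 for BMF (minus strand, the outer of 2 RefSeq start sites), chr2:111120664-111120963 for BCL2L11 (plus strand), chr19:47232618-47232917 for BBC3 (minus strand) and chr19:48954625-48954924 for BAX (plus strand).
BMF: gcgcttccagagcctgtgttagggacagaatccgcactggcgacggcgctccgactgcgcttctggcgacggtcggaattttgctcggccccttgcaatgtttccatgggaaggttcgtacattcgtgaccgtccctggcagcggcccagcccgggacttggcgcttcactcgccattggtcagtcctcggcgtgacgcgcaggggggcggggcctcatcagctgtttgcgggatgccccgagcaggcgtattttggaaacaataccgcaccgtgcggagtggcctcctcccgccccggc
BCL2L11: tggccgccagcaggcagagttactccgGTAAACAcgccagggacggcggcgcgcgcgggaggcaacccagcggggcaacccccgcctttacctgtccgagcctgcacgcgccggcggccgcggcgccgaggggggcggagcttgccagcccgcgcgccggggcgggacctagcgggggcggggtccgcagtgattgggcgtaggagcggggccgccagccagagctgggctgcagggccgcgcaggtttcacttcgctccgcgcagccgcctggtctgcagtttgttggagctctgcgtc
BBC3: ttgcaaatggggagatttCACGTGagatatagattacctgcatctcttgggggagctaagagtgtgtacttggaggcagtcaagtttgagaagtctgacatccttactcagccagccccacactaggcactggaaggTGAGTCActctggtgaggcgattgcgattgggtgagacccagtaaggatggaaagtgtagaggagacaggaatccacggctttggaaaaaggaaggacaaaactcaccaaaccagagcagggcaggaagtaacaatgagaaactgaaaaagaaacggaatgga
BAX: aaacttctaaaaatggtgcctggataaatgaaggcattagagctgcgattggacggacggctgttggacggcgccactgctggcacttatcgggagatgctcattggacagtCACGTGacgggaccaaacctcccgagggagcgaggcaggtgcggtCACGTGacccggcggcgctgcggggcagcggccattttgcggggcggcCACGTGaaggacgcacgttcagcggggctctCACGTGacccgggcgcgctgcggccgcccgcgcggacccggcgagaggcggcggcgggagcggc

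The BMF promoter held none of these 3 motifs at either start site. The FOXO core was present once in the BCL2L11 promoter, with its first base at position -223 (the start site is 0), and is found in 3.42% of 35116 RefSeq promoters of this length. BBC3 held an E-box at -232 and an AP-1 motif at -113, which are found in 7.26% and 4.95% of promoters. BAX held 4 E-boxes, at -138, -93, -45 and -14. Promoters were found for 7 of the 8 genes, and those of BAK1, PMAIP1 and BCL2L1 held none of the 3 motifs. A match is a description of the letters and not a site of binding.

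The libraries held between 10667343 reads (untreated Hep3B) and 15968317 reads (untreated Huh7). Levels are log2 values of the scaled reads (per 10000000 reads of a library) with 1 added, and a log2-fold change is a difference of such values. Intervals are 95% Clopper-Pearson intervals of the ratio of the reads, which cover counting error only. The 10 hepatocyte and hepatoma markers took 2.11% to 6.01% of reads in Hep3B and 3.36% to 5.12% in Huh7. In MHCC97H they took 0.0193% to 0.0384%, with TTR at 0 reads in the untreated library, while the liver factor HNF4A had 775 to 2041 reads. The part of this difference in the results below was not tested, and mean changes without MHCC97H are given for the 3 genes with the largest mean changes. Of 6 mesenchymal markers, all in the table, 4 were called higher with the combination in the limma fit, where 36.0% of all genes were called in either direction: CDH2 (2.17 ± 0.40, adjusted p = 0.00496), COL1A1 (2.15 ± 0.65, adjusted p = 0.0289), VIM (1.51 ± 0.28, adjusted p = 0.00504) and FN1 (0.65 ± 0.20, adjusted p = 0.0319). Of these 4, 0 were called without Huh7, 1 without Hep3B (CDH2) and 3 without MHCC97H. COL1A2 (0.405 ± 0.46, adjusted p = 0.513) did not pass with the combination. Neither did ZEB1, which went the other way (-0.32 ± 0.20, adjusted p = 0.214). The list took 0.251% of reads in untreated Hep3B and 0.623% with the combination, 0.829% and 1.34% in MHCC97H, and 0.660% and 1.03% in Huh7, and COL1A2 had 0 to 2 reads in MHCC97H. FN1 had the most reads of the list in each line, so that these shares mainly follow FN1. Over the 4 treatments it had 20718 to 41640 reads in Hep3B, 94410 to 241665 in MHCC97H and 92014 to 154099 in Huh7. With AZD8055 alone, the list took 0.402% in Hep3B, 1.72% in MHCC97H and 1.41% in Huh7, and FN1 was called higher (0.90 ± 0.20, adjusted p = 0.0467), a call lost without any 1 of the lines. With compound #57 alone, the list took 0.285%, 0.848% and 0.794% in the same lines, and ZEB1 was at -0.61 ± 0.20 (adjusted p = 0.139, not called). The part of these markers in the changes of the 8 genes was not tested. Of 6 immune and endothelial markers, PECAM1 was the 1 in the table and took at most 0.00541% of reads. As in any bulk sample, fewer cells of a kind and less RNA per cell cannot be told apart.

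BMF (chromosome 15, 40087890 to 40108892, minus strand, hg38) was higher with each drug and highest with the combination in all 3 cell lines. In Hep3B, its level was 9.26 (654 reads) in untreated cells, 10.61 (2447 reads) with compound #57, 11.50 (3542 reads) with AZD8055 and 12.38 (6591 reads) with the combination. In MHCC97H, it was 7.41 (220 reads) in untreated cells, 9.35 (743 reads) with compound #57, 10.24 (1722 reads) with AZD8055 and 11.33 (3193 reads) with the combination. In Huh7, BMF stood at 8.35 (520 reads) in untreated cells, 10.15 (1536 reads) with compound #57, 11.04 (2526 reads) with AZD8055 and 12.10 (5093 reads) with the combination. The order untreated, compound #57, AZD8055, combination thus held in each line. Across the lines, the highest untreated level (9.26, Hep3B) lay just below the lowest level with compound #57 (9.35, MHCC97H), while the levels with AZD8055 and with the combination overlapped. How many of all genes have untreated levels set apart in this way was not counted.

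BMF changed with AZD8055 by 2.24 (interval 2.12 to 2.36) in Hep3B, 2.83 (2.64 to 3.05) in MHCC97H and 2.68 (2.55 to 2.83) in Huh7. With compound #57 alone, BMF changed by 1.35 (1.23 to 1.48) in Hep3B, 1.94 (1.73 to 2.17) in MHCC97H and 1.79 (1.65 to 1.94) in Huh7. With the combination, BMF was 8.69-fold higher in Hep3B, 15.2-fold in MHCC97H and 13.4-fold in Huh7, or 3.12 (3.01 to 3.24), 3.93 (3.74 to 4.14) and 3.75 (3.62 to 3.88) on the log2 scale. The change was smallest in Hep3B, the line with the highest untreated level, under all 3 treatments. Averaged over the 3 lines, the log2-fold change was 2.58 ± 0.15 with AZD8055, 1.70 ± 0.15 with compound #57 and 3.60 ± 0.15 with the combination. The value after ± here and for the means below is the SE of the limma fit, which pools the spread over all treatments. The SD of the BMF change over the 3 lines was 0.31, 0.31 and 0.42 in the same order. Ranked by this mean, BMF was number 7 from the top of 11548 genes with AZD8055, number 69 with compound #57 and number 8 with the combination. Without MHCC97H, the means were 2.46, 1.57 and 3.43.

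BBC3 (chromosome 19, 47220822 to 47232766, minus strand), which codes for PUMA, had few reads, and its intervals are wide. In Hep3B, BBC3 was at 6.30 (83 reads) in untreated cells, 7.17 (223 reads) with compound #57, 6.96 (151 reads) with AZD8055 and 7.75 (265 reads) with the combination. In MHCC97H, the level was 5.69 (66 reads) in untreated cells, 6.51 (103 reads) with compound #57, 7.75 (306 reads) with AZD8055 and 8.53 (455 reads) with the combination. In Huh7, the line with the fewest BBC3 reads, it was 4.99 (49 reads) in untreated cells, 5.30 (52 reads) with compound #57, 5.84 (68 reads) with AZD8055 and 6.40 (97 reads) with the combination. The combination gave the highest level in every line, but the order of both single drugs differed, with compound #57 above AZD8055 in Hep3B and below it in MHCC97H and Huh7. With the combination, BBC3 changed by 1.45 (1.10 to 1.84) in Hep3B, 2.84 (2.48 to 3.26) in MHCC97H and 1.41 (0.93 to 1.97) in Huh7. In Huh7 with compound #57, it was 0.31 with an interval that includes 0 (-0.27 to 0.91), a difference not detectable at this depth. The means were 1.19 ± 0.32 with AZD8055, 0.67 ± 0.32 with compound #57 and 1.90 ± 0.32 with the combination, and the SD over the 3 lines was 0.76, 0.31 and 0.81. Without MHCC97H, they were 0.76, 0.59 and 1.43.

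BCL2L11 (chromosome 2, 111119378 to 111168444, plus strand), which codes for BIM, was higher than untreated with each treatment, but to a different extent in each line. In Hep3B, BCL2L11 was at 8.02 (276 reads) in untreated cells, 8.76 (676 reads) with compound #57, 8.60 (472 reads) with AZD8055 and 9.02 (641 reads) with the combination. In MHCC97H, its level was 8.49 (467 reads) in untreated cells, 9.48 (811 reads) with compound #57, 9.55 (1067 reads) with AZD8055 and 10.61 (1930 reads) with the combination. In Huh7, it stood at 9.14 (902 reads) in untreated cells, 9.36 (893 reads) with compound #57, 9.97 (1208 reads) with AZD8055 and 9.67 (948 reads) with the combination. The combination gave the highest level in Hep3B and MHCC97H, whereas in Huh7 AZD8055 alone did. With the combination, BCL2L11 changed by 1.002 (0.80 to 1.21) in Hep3B, 2.12 (1.98 to 2.27) in MHCC97H and 0.53 (0.40 to 0.66) in Huh7. Against AZD8055 alone, the combination was 1.06 higher in MHCC97H (0.95 to 1.17) and 0.43 higher in Hep3B (0.25 to 0.60). In Huh7, it was lower than AZD8055 alone by -0.30 (-0.42 to -0.18). The means were 0.82 ± 0.26 with AZD8055, 0.65 ± 0.26 with compound #57 and 1.22 ± 0.26 with the combination, and 0.70, 0.48 and 0.77 without MHCC97H. The SD over the 3 lines was 0.24, 0.39 and 0.82.

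PMAIP1 (chromosome 18, 59899996 to 59904305, plus strand), which codes for NOXA, had few reads outside MHCC97H. It had 4 to 5 reads in each Huh7 library, 11 to 16 in Hep3B and 318 to 685 in MHCC97H. In MHCC97H, where it can be measured, it was at 8.32 (414 reads) in untreated cells, 8.13 (318 reads) with compound #57, 8.91 (685 reads) with AZD8055 and 8.57 (470 reads) with the combination. AZD8055 alone gave the highest level there, 0.59 above untreated (0.42 to 0.78), and the combination was 0.26 above untreated (0.06 to 0.45). In Hep3B and Huh7, each interval against untreated cells included 0, and a change was not detectable at this depth.

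Of the pore-forming members, BAX (chromosome 19, 48954815 to 48961798, plus strand) was lower than untreated in all 9 comparisons with a drug, by small amounts, and in 3 of the 9 the interval included 0. In Hep3B, BAX was at 9.53 (785 reads) in untreated cells, 9.22 (932 reads) with compound #57, 9.47 (865 reads) with AZD8055 and 9.21 (732 reads) with the combination. In MHCC97H, it stood at 9.9995 (1332 reads) in untreated cells, 9.78 (1002 reads) with compound #57, 9.73 (1211 reads) with AZD8055 and 9.58 (948 reads) with the combination. In Huh7, its level was 8.91 (767 reads) in untreated cells, 8.85 (626 reads) with compound #57, 8.82 (543 reads) with AZD8055 and 8.67 (473 reads) with the combination. The combination gave the lowest level in each line, in Hep3B only -0.0085 from that of compound #57. The mean change was -0.14 ± 0.11 with AZD8055, -0.19 ± 0.11 with compound #57 and -0.32 ± 0.11 with the combination. Without MHCC97H, the value with AZD8055 was -0.07. BAK1 (chromosome 6, 33572547 to 33580293, minus strand), which sits in the outer membrane, had 288 to 879 reads. Its mean change was -0.30 ± 0.11 with AZD8055 and -0.24 ± 0.11 with the combination, below untreated in 3 of 3 lines each time. With compound #57, it was 0.06, or -0.009 when libraries were centred on their medians, so that no direction is given.

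BCL2L1 (chromosome 20, 31664452 to 31723989, minus strand), which codes for BCL-XL, differed from untreated cells in opposite directions with the 2 drugs in every line. In Hep3B, BCL2L1 was at 11.46 (3010 reads) in untreated cells, 10.62 (2460 reads) with compound #57, 11.93 (4773 reads) with AZD8055 and 11.17 (2844 reads) with the combination. In MHCC97H, it was at 10.73 (2214 reads) in untreated cells, 10.24 (1373 reads) with compound #57, 10.97 (2864 reads) with AZD8055 and 10.55 (1859 reads) with the combination. In Huh7, the line with the most BCL2L1, it was at 11.93 (6208 reads) in untreated cells, 11.53 (3996 reads) with compound #57, 12.62 (7601 reads) with AZD8055 and 12.30 (5877 reads) with the combination. AZD8055 gave the highest and compound #57 the lowest level in all 3 lines. In Hep3B, MHCC97H and Huh7, the change with AZD8055 was 0.47, 0.24 and 0.70, and with compound #57 it was -0.84, -0.50 and -0.40 in the same order. Under the combination, the level lay between those of both single drugs, at -0.29 against untreated in Hep3B, -0.18 in MHCC97H (-0.28 when libraries were centred) and 0.38 in Huh7. The means were 0.47 ± 0.15, -0.58 ± 0.15 and -0.03 ± 0.15 with AZD8055, compound #57 and the combination, the last of which ran from -0.24 without Huh7 to 0.10 without Hep3B.

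MCL1 (chromosome 1, 150560895 to 150579738, minus strand), a short-lived pro-survival protein, differed little between treatments. It had 3850 to 6408 reads. ADAMTSL4 overlaps it on the other strand and the non-coding ADAMTSL4-AS1 on the same strand, and their reads may not have been kept apart. With AZD8055, MCL1 was 0.24 above untreated in Hep3B and 0.40 in Huh7, and -0.23 in MHCC97H. With the combination, it was -0.22 in MHCC97H, 0.35 in Huh7 and 0.06 in Hep3B, where centring libraries on their medians turned the value to -0.01. The mean with the combination was 0.06 ± 0.14, turned to -0.006 with centring, and ran from -0.08 without Huh7 to 0.21 without MHCC97H. With compound #57, MCL1 stood at -0.22 (Hep3B), -0.25 (MHCC97H) and 0.03 (Huh7), the last of which also changed sign with centring, to -0.02.

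Per kilobase of the canonical transcript, the mean level in untreated cells was 1089 ± 425 scaled reads (SD, n = 3) for BCL2L1, 1018 ± 281 for MCL1, 939 ± 341 for BAX, 196 ± 65.6 for BAK1, 78.7 ± 48.0 for BMF, 77.3 ± 30.6 for BCL2L11 and 28.7 ± 12.8 for BBC3. The first 3 differed by less than their SD, as did BMF and BCL2L11. Their order changed with the line, since BCL2L1 was highest in Huh7 (47.8% of the summed level of the 8 genes), level with MCL1 in Hep3B (30.2% and 30.5%) and below BAX (35.1%) and MCL1 (33.9%) in MHCC97H. PMAIP1 took 4.56% in MHCC97H and 0.204% and 0.0522% in Hep3B and Huh7, and BAX depends on the length used (289 over all of its exons, where MCL1 is at 646). With each drug, BMF made up more of this total. Its share was 3.60% in untreated Hep3B, 10.9% with compound #57, 13.2% with AZD8055 and 26.0% with the combination. In MHCC97H, it was 0.98%, 4.24%, 6.71% and 13.6% in the same order. In Huh7, it was 2.20%, 8.04%, 9.44% and 20.2%. By share, BMF ranked number 5, 7 and 6 of the 8 genes in untreated Hep3B, MHCC97H and Huh7, and number 2, 4 and 2 with the combination. The summed level of the 4 BH3-only genes over that of BCL2L1 and MCL1 was 0.105 in untreated Hep3B and 0.666 with the combination, 0.158 and 0.759 in MHCC97H, and 0.0897 and 0.399 in Huh7. With the length of all exons in place of the canonical transcript, the ratio with the combination was 0.883, 0.959 and 0.537 in the same lines, so that its size depends on the length used. The share of BMF with the combination was then 34.4%, 19.1% and 26.8%, and its rank number 1, 2 and 2. These are levels of RNA, and no protein was measured in these libraries.

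The combination was compared with what both single drugs gave. On the log2 scale, where a sum corresponds to multiplied fold changes, BMF with the combination was below the sum of both drugs by -0.47 in Hep3B, -0.85 in MHCC97H and -0.73 in Huh7, a mean of -0.68 ± 0.21. On the linear scale, it was above the untreated level plus both increments, 1.39 times in Hep3B, 1.53 times in MHCC97H and 1.51 times in Huh7. The BMF level with the combination thus lay between adding and multiplying in each line. For BBC3, the difference from the log2 sum was -0.07, -0.05 and 0.24 in Hep3B, MHCC97H and Huh7, and the level was 1.14, 1.45 and 1.30 times the linear sum. For BCL2L11, the difference was -0.31, 0.07 and -0.52, and the level was 0.93, 1.42 and 0.74 times the linear sum, on either side of 1. BCL2L1 lay 0.08 above the log2 sum in each of the 3 lines. No gene of the 11548 (0%) was called for a difference from the log2 sum (limma, Benjamini-Hochberg adjusted p under 0.05), with 178 at an unadjusted p under 0.05 and 0 called by voom on the reads.

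In the limma fit over all genes, which adjusts over 11548 genes, the members' calls are listed only as a description. The selection may have used them, so that they are no test of the members and nothing is read from their number. BMF was the 1 member called with AZD8055, where 2.96% of all genes were called, and with compound #57, where it was the only gene called in this fit (0.00866%). That number was 778 genes without MHCC97H, 123 with voom, and 0 with only the libraries compared, where BMF was not called. With the combination against untreated, BMF, BBC3 and BCL2L11 were called higher and BAX lower, 4 of 8 beside 36.0% of all genes. Against compound #57 alone, the combination gave BMF as the 1 member called (4.18% of all genes). Against AZD8055 alone, no gene was called (0%), with 1673 genes at an unadjusted p under 0.05 and 0 called by voom, and BMF differed by 1.013 ± 0.15. Without the Huh7 libraries, BMF was called with neither single drug, at mean changes of 2.53 with AZD8055 and 1.65 with compound #57, and it was then the 1 member called with the combination (0.0953% of all genes). Without Hep3B, the members called with the combination were BMF and BBC3 (15.6% of all genes), without MHCC97H BMF, BBC3 and BCL2L11 (32.7%), and BAX was not called with any 1 of the lines left out.

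Within a cell line, at least 2-fold higher with AZD8055 were BMF in Hep3B (3.81% of all genes), BMF, BBC3 and BCL2L11 in MHCC97H (7.14%) and BMF in Huh7 (5.89%). With compound #57, BMF alone of the 8 passed this size in Hep3B (8.96%), MHCC97H (3.12%) and Huh7 (4.43%). With the combination, BMF, BBC3 and BCL2L11 did so in Hep3B (11.6%) and MHCC97H (11.4%), and BMF and BBC3 in Huh7 (12%). In Hep3B, BCL2L11 passed only just, and was at 0.93 when libraries were centred and at 0.98 with a pseudocount of 10. The median change of the 8 genes with the combination was -0.03, 0.05 and 0.36 in Hep3B, MHCC97H and Huh7, beside 0.06, 0.09 and 0.04 over all genes.

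The cell lines also differed in the levels of the members. In the limma fit, with treatment as a term and 4 libraries a line, 5 of the 7 genes other than PMAIP1 were called between MHCC97H and Hep3B (67.8% of all genes), 6 between MHCC97H and Huh7 (70.2%) and all 7 between Hep3B and Huh7 (55.1%). The 4 libraries of a line are 4 treatments of 1 line, so that these differences compare these cultures, and for MHCC97H the time differs too. They hold levels under a drug, which the selection may have used. The calls are thus no test of the members, and nothing is read from their number. PMAIP1 stood 4.92 above Hep3B and 6.29 above Huh7 in MHCC97H (log2). PMAIP1 is left out of the counts because the table holds genes above a low-value limit. With 4 to 16 reads in the other lines, it is high in MHCC97H alone. BMF was higher in Hep3B than in Huh7 by 0.53 ± 0.13 (log2). It was lower in MHCC97H than in Hep3B by -1.36 ± 0.13 and than in Huh7 by -0.82 ± 0.13. BCL2L1 was also lowest in MHCC97H, but highest in Huh7. The difference was -0.67 ± 0.13 between MHCC97H and Hep3B, -1.47 ± 0.13 between MHCC97H and Huh7 and -0.80 ± 0.13 between Hep3B and Huh7. BAX was higher in MHCC97H than in Huh7 by 0.96 ± 0.09. BCL2L11 was higher in MHCC97H than in Hep3B by 0.93 ± 0.22, with 0.47 between the untreated libraries and 1.59 between those with the combination. Between MHCC97H and Huh7, BCL2L11 was not called (-0.007 ± 0.22), a mean of differences in opposite directions, from -0.65 in untreated cells to 0.94 with the combination. BBC3 between MHCC97H and Hep3B was not called either (0.08 ± 0.28), with MHCC97H lower in untreated cells (-0.61) and with compound #57 (-0.65) and higher with AZD8055 (0.79) and the combination (0.78). MCL1 between these lines was at -0.02 ± 0.12, from -0.29 to 0.17 over the 4 treatments. Untreated libraries alone gave -1.854 for BMF between MHCC97H and Hep3B and 4.404 for PMAIP1. Between Hep3B and Huh7, they gave 0.911 for BMF and -0.462 for BCL2L1, each over 1.5 times away from the value over all treatments.

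The members were also compared with each other and with all genes over the 12 libraries, with values centred within each line. These correlations rest on libraries that share a cell line and a treatment and are a description. BMF followed BBC3 (Pearson's r = 0.915) and BCL2L11 (0.861) and ran against BAX (-0.819). BCL2L1 and MCL1 followed each other (0.824), and BMF followed them little (0.200 and 0.270). Among 9870 genes with at least 25 reads in each library, the 5 most like BMF were KLF7, a Krüppel-like transcription factor (0.984), CNPPD1 (0.981), TMEM260 (0.974), RAD17, a loader of the checkpoint clamp (0.972) and EXOC4, a subunit of the exocyst (0.969). The 3 least like it were the glycolytic enzyme PGK1 (-0.969), NUDT5 (-0.963) and SEC13 (-0.962). Counted from the most like BMF, BBC3 ranked number 178 of these 9870 genes, BCL2L11 number 536 and BAX number 9053. Many other genes thus followed BMF, or ran against it, more closely than these members. KLF7 changed with the combination by 2.14 (Hep3B), 2.84 (MHCC97H) and 2.47 (Huh7). With Spearman's correlation, 1 of the 5 was kept (EXOC4, rho = 0.993).

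Of 15 other genes of the BCL2 family, 8 were analysed here (BCL2L2, BCL2L12, BCL2L13, BOK, BAD, BID, BNIP3 and BNIP3L). This list and the 5 lists below were also chosen with earlier results of these data known. Their calls and p-values are thus a description. With AZD8055, 1 of the 8 rose and 7 did not pass the test, and the median was -0.03 beside 0.03 over all genes, of which 2.96% were called. BOK, a relative of BAX and BAK1, was that gene (1.22 ± 0.21, adjusted p = 0.0321), and its call was lost without any 1 of the lines (0.94 without Huh7, adjusted p = 0.366). With the combination, 3 rose, 1 fell and 4 did not pass, or 4 of 8 called beside 36.0% of all genes, with a median of 0.26 beside 0.09. BOK had 185 reads in untreated Hep3B and 615 with the combination, 358 and 737 in MHCC97H, and 448 and 1589 in Huh7, a mean of 1.64 ± 0.21 (adjusted p = 0.00216). BNIP3L, a receptor for the removal of mitochondria, rose by 0.96 ± 0.20 (adjusted p = 0.00702), and was at 0.62 without MHCC97H. BCL2L13 rose by 0.34 ± 0.11 (adjusted p = 0.035) and BCL2L12 fell by 0.81 ± 0.21 (adjusted p = 0.0155). The calls of BCL2L13 and BCL2L12 were lost without any 1 of the lines. BAD (0.43 ± 0.21, adjusted p = 0.123), BID (-0.25 ± 0.12, adjusted p = 0.124), BNIP3 (0.19 ± 0.22, adjusted p = 0.527) and BCL2L2 (0.04 ± 0.15, adjusted p = 0.834) did not pass. With compound #57, none of the 8 was called and 3 had an unadjusted p under 0.05. Against compound #57 alone, the combination had BOK higher and 7 not passing, where 4.18% of all genes were called. Over this list and the 5 lists below, 21 calls with the combination came from all 3 lines, of which 1 (ATF3) was kept without Huh7, 12 without Hep3B and 12 without MHCC97H. The 10 genes called both without Hep3B and without MHCC97H were BOK, BNIP3L, AIFM1, CYCS, BIRC3, BIRC5, TRADD, DESI1, ATF3 and FOXO3. With only the libraries compared, 9 of the 21 calls with the combination were kept, BNIP3L (adjusted p = 0.0542) and DESI1 (adjusted p = 0.0565) not among them, and 0 of the 3 with AZD8055.

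Downstream of the pores, 12 of 13 apoptosome and caspase genes were analysed. With the combination, APAF1, the scaffold of the apoptosome, rose by 0.79 ± 0.22 (adjusted p = 0.0207), while CYCS, which codes for cytochrome c, fell by 1.25 ± 0.21 (adjusted p = 0.00384) and AIFM1, a flavoprotein of the space between the mitochondrial membranes, fell by 0.78 ± 0.11 (adjusted p = 0.00287). The other 9, caspases among them, did not pass, so that 3 of 12 were called beside 36.0% of all genes, and the median was 0.08 beside 0.09. The call of APAF1 was lost without any 1 of the lines. AIFM1 also fell by 0.81 ± 0.11 with AZD8055 (adjusted p = 0.0268), a call lost without Huh7 (-0.76, adjusted p = 0.366) and without Hep3B (-0.77, adjusted p = 0.109). Of 5 inhibitors of apoptosis (IAP), BIRC3 (1.78 ± 0.25, adjusted p = 0.00271) and BIRC2 (0.37 ± 0.11, adjusted p = 0.0268) rose with the combination, and BIRC5, the mitotic protein survivin, fell by 0.94 ± 0.20 (adjusted p = 0.00882), or 3 of 5 called beside the same 36.0%. The call of BIRC2 was lost without any 1 of the lines. BIRC3 was also called with AZD8055 (1.47 ± 0.25, adjusted p = 0.0321), with 16 reads in untreated Huh7 and 49 with the drug, and this call was lost without any 1 of the lines (1.25 without Huh7, adjusted p = 0.366).

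**Figure D1:**
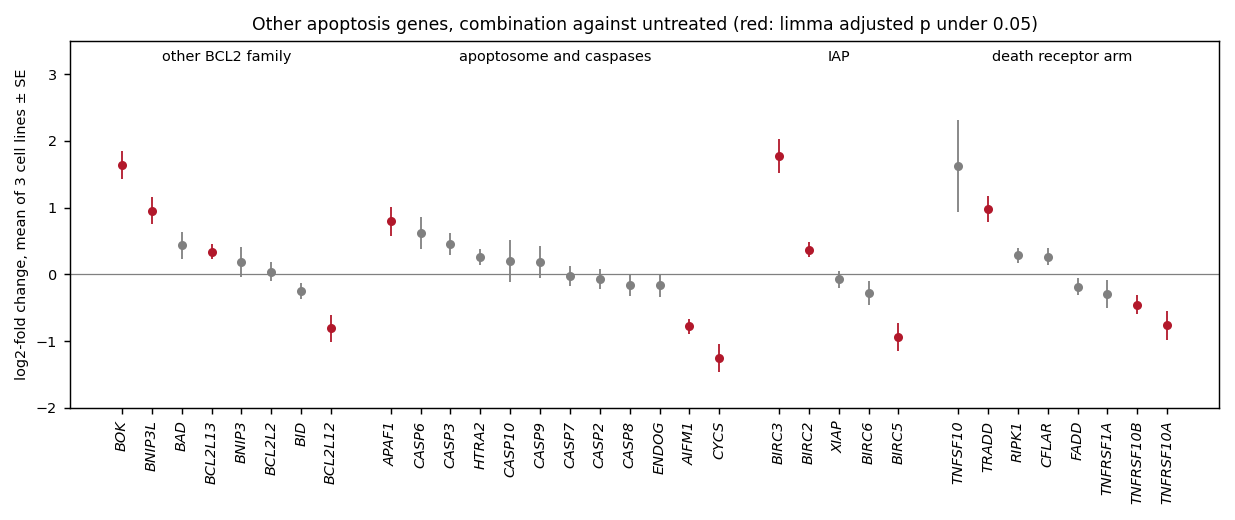
Mean log2-fold change over 3 cell lines with the combination against untreated cells (y axis, bars are ± SE of the limma fit) for the analysed genes of 4 lists (x axis). Genes in red were called and genes in grey were not, with BIRC3 and BOK highest among those called and CYCS lowest.

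In the death receptor arm, 8 of 9 genes were analysed, and with the combination 1 rose, 2 fell and 5 did not pass, or 3 of 8 called beside 36.0% of all genes. TRADD, an adaptor of TNF receptor signalling, rose by 0.98 ± 0.20 (adjusted p = 0.00694). The TRAIL receptors TNFRSF10A and TNFRSF10B fell by 0.76 ± 0.22 (adjusted p = 0.0245) and by 0.45 ± 0.15 (adjusted p = 0.0368). Both of these TRAIL receptor calls were lost without any 1 of the lines. Of 8 analysed binding partners and turnover factors of the members, BTRC, an adaptor of an E3 ligase, rose by 0.43 ± 0.14 (adjusted p = 0.034) and DESI1 fell by 0.82 ± 0.21 (adjusted p = 0.0142), with 6 not passing. This is 2 of 8 called beside 36.0% of all genes. The call of BTRC was lost without any 1 of the lines (0.269 without Hep3B, adjusted p = 0.291).

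Of 16 transcription factors known to act on member genes, 14 were analysed. With the combination, 6 rose, 0 fell and 8 did not pass, or 6 of 14 called beside 36.0% of all genes, with a median of 0.35 beside 0.09. ATF3, a stress-induced factor, rose from 95 to 617 reads in Hep3B, from 214 to 1259 in MHCC97H and from 95 to 423 in Huh7 (2.56 ± 0.32, adjusted p = 0.0021). JUN, a part of AP-1, rose by 1.02 ± 0.26 (adjusted p = 0.0163). FOXO3 (0.85 ± 0.17, adjusted p = 0.00603) and FOXO4 (0.97 ± 0.30, adjusted p = 0.0318) rose, as did RELA (0.47 ± 0.11, adjusted p = 0.0113) and STAT3 (0.42 ± 0.15, adjusted p = 0.0467). The call of FOXO4 was lost without MHCC97H (0.596) and without Huh7 (0.952). Those of JUN and RELA were lost without Huh7 and without Hep3B, and that of STAT3 without Huh7 and without MHCC97H. None of the 14 was called with either single drug, with 3 (AZD8055) and 4 (compound #57) at an unadjusted p under 0.05.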

How the data were processed

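RNA of Hep3B, MHCC97H and Huh7 cells was sequenced with 1 library for each of 4 treatments, as polyA+ stranded libraries per the labels (TruSeq in the study's methods), and aligned to hg38, per the submitters' processing notes. The aligner, the counting and its use of strand are not given in the sources used here. The authors deposited log2 values per gene. After a constant of 0.001 was removed, all values gave whole reads (tolerance 0.001) per 10000000 of a library with 1 added, a scale worked out from the values. Antisense genes overlap BMF, BBC3, BCL2L11, BCL2L1, BAK1 and MCL1, and other genes on the same strand overlap BBC3 and MCL1.

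limma 3.58.1 (R 4.3.3; lmFit, eBayes with trend) was fitted to all libraries on treatment plus cell line (6 residual degrees of freedom), with Benjamini-Hochberg adjustment over 11548 genes and a threshold of 0.05, and was tested on simulated data. Libraries of 1 cell line form the pairs (lowest correlation of their deviations 0.872). No label names separate cultures. Within a line no p-value was computed. Lengths and positions came from GENCODE release 44. The members, lists and tests were chosen with earlier results of these data known, and 1 list and 1 gene of another list are not reported here. Named genes were the 8 members, the other BCL2 family, genes of the other lists called with AZD8055 or the combination or changed at least 2-fold one way in all 3 lines, and the 5 most and 3 least like BMF. The alternatives were a pseudocount of 10, only the 75% of genes highest in mean level, median centring, no cell line term, each line or treatment left out, the libraries compared alone, exon union lengths and Spearman's correlation. voom on the whole reads, and leaving out each line for the listed genes, were chosen after the data were seen. Python 3.11.15 with numpy 2.4.6, pandas 2.3.3 and scipy 1.17.1 was used.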

Additional observations from a re-analysis of the deposited data

Results flagged for a closer look

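BCL2L1 with the combination against untreated cells was lower in Hep3B (-0.29) and MHCC97H (-0.18) and higher in Huh7 (0.38), a gap of 0.671 on the log2 scale between Hep3B and Huh7. MCL1 with AZD8055 was lower in MHCC97H (-0.23) and higher in Hep3B (0.24) and Huh7 (0.40), a gap of 0.627 between MHCC97H and Huh7. MCL1 with the combination was lower in MHCC97H (-0.22) and higher in Huh7 (0.35), a gap of 0.571, with Hep3B at 0.06, or -0.01 when libraries were centred. These 3 results are set out here because the cell lines moved in opposite directions. Each line is 1 library per treatment, so the differences between lines were not tested.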

How the results depend on the processing

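The planned count test of edgeR was not run. The deposited values are log2, and voom on the whole reads worked out from them took its place. Without the replicate block (the cell line term), 0 genes and 0 members were called in each of AZD8055, compound #57 and the combination against untreated, and in the combination against compound #57. With only the libraries compared, 2 genes were called with AZD8055, 0 genes and 0 members with compound #57, 1889 genes and 2 members (BMF and BBC3) with the combination, and 265 genes for the combination against compound #57. voom called 123 genes with compound #57. Without the treatment term, 5 members were called between Hep3B and Huh7 (BAK1, BCL2L1, PMAIP1, MCL1 and BAX). This count includes PMAIP1, which is left out of the counts of cell line differences above. The call of PMAIP1 is thus no test of this gene, and nothing is read from it.

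Leaving out each cell line in turn gave 0 to 109 genes and 0 to 1 members with AZD8055, 0 to 778 genes and 0 to 1 members with compound #57, and 11 to 3778 genes and 1 to 3 members with the combination. It gave 0 to 3 genes for the combination against AZD8055, and 0 to 331 genes and 0 to 1 members against compound #57. The lowest counts came without Huh7 (replicate 1), and the highest without MHCC97H. Without Hep3B, 1 gene (BMF) was called with AZD8055 and 1797 with the combination.

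Median centring shifted the treated libraries by up to 0.109 against untreated (MHCC97H, compound #57), and with it 256 of 473 genes called with AZD8055 were higher (255 of 342 otherwise) and 1993 of 4222 with the combination (2410 of 4154 otherwise). No called change of a member turned its sign, and BAK1 joined the members called with the combination. In each of the cell line contrasts, the call of BMF was lost without the treatment term. Also lost were the calls of BCL2L1 between MHCC97H and Hep3B, BAK1 between MHCC97H and Huh7, and BBC3 and BCL2L11 between Hep3B and Huh7. The call of BAK1 between MHCC97H and Huh7 was also lost without untreated, AZD8055 or combination libraries, and that of MCL1 without untreated libraries. With 1 library per condition, the spread between repeats within a line is unknown, and PMAIP1 in Hep3B and Huh7 rests on 4 to 16 reads. The cause of these dependences was not tested.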
